A study of Mus musculus with 6 samples.

Results

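The genes described here are 34 genes of cholesterol and fatty acid synthesis, chosen by name for what their products do and not by any measured value. Of these, 33 are rows of the authors' normalized table by their symbol, out of 13564 genes in that table, and 1, Fads2, is found only in the count files, which hold 55487 genes. The members fall into 5 groups by role, with 6 enzymes of the mevalonate steps, 11 enzymes of the squalene and sterol steps, 5 regulators of the sterol regulatory element-binding proteins (SREBPs), 8 genes of fatty acid synthesis, elongation and desaturation, and 4 genes of sterol transport, efflux and the liver X receptor (LXR).

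Naive CD4 T cells (CD4N) of Foxo1TKO mice (n = 3 libraries) and Foxo1Ctrl mice (n = 3 libraries) were activated in culture, and the RNA of their progeny was sequenced after 4 days. Foxo1TKO mice carry floxed Foxo1 alleles and a Cre driven by CD4 regulatory sequences, which is active from the double-positive stage of the thymus and so removes Foxo1 from both CD4 and CD8 T cells. Foxo1Ctrl mice carry the same floxed alleles without Cre, so that Cre itself is present in 1 genotype only. Mice of both genotypes were on a C57BL/6 background with a Foxp3-GFP reporter, and were 3 months old unless stated otherwise. The cells came from lymph nodes and were stimulated with anti-CD3 (145-2C11) at 0.1 µg per ml in the presence of splenocytes of CD3eKO mice, which have no T cells, as antigen-presenting cells. The labels give 50000 naive cells and 250000 splenocytes per culture, whereas the methods give 500000 naive cells. Whether the splenocytes were removed before RNA extraction is not stated, nor is it stated that the 3 libraries of a genotype came from separate animals. For that reason, the p-values below measure the spread between these samples, which may be technical.

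Cells make cholesterol from acetyl-CoA. Condensing and reducing steps give mevalonate, which is phosphorylated and decarboxylated to isoprenoid units, and these are joined to farnesyl diphosphate, then to squalene, which is cyclized to lanosterol and trimmed to cholesterol. Fatty acids are built from the same acetyl-CoA by acetyl-CoA carboxylase and fatty acid synthase and are then elongated and desaturated. SREBPs, held in the endoplasmic reticulum by Scap and the Insig proteins when sterols are plentiful, travel to the Golgi when sterols are scarce, are cleaved there and switch on the genes of both pathways. LXRs, which are activated by oxysterols, switch on genes that export sterols. T cells raise lipid synthesis after activation to build the membranes of their daughter cells.

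Promoters of 4 members are shown because these genes carry the differences described below and differ in the letters they hold. Each runs from 250 bases before to 50 bases after the start site of RefSeq (GRCm38.p6) and is written 5′ to 3′ on the strand of the gene. Capitals mark matches, on either strand, to the letters of a sterol response element (TCACNCCAC), of an NF-Y site (CCAAT), of an Sp1 site (GGGCGG) and of a Foxo site (TGTTTAC), and matches may overlap. Hmgcs1 lies at chr13:119690101-119690400 (plus strand), Idi1 at chr13:8885356-8885655 (plus strand), Hsd17b7 at chr1:169969156-169969455 (minus strand) and Elovl6 at chr3:129532136-129532435 (plus strand).
Hmgcs1: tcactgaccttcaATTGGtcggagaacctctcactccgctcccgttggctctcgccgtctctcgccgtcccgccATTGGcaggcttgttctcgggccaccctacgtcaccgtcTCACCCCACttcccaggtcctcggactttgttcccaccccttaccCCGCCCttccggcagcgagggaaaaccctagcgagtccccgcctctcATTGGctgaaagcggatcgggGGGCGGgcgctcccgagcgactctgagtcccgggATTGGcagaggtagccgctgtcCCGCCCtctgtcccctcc
Idi1: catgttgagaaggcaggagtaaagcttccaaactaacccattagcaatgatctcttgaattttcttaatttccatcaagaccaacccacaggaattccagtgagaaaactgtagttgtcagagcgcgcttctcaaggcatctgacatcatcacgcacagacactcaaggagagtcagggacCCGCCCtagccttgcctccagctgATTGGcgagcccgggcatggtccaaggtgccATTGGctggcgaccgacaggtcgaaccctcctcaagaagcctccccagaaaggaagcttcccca
Hsd17b7: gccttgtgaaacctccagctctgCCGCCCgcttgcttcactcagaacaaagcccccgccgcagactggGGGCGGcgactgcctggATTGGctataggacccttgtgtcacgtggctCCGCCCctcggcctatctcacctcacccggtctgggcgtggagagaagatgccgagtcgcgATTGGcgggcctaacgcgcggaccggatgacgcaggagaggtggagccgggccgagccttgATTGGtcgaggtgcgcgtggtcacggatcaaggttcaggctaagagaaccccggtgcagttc
Elovl6: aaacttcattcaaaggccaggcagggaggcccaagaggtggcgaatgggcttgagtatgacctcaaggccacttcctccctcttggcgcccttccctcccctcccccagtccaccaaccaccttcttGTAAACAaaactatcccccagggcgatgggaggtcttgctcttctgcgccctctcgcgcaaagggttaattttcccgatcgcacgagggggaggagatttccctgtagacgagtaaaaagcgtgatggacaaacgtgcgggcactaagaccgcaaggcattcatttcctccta

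The table of promoters held 26 of the 34 members, with 34 start sites among them. Abcg1, Fads1, Fdft1, Fdps, Scd1, Scd2, Sqle and Stard4 were not matched. The sterol response element letters were in 1 member's promoter, that of Hmgcs1, where they begin 137 bases before the start site, and were found in 1.44% of all 27025 genes and in 1.24% of all 32851 promoters of the table. CCAAT was in a promoter of 20 of the 26 members (76.9%) and of 41.1% of all genes in the table, or in 61.8% of the members' promoters and 37.4% of all promoters. The 20 held all 6 members that were higher in Foxo1TKO libraries (below), and 14 of the 17 matched members with no call. GGGCGG was in a promoter of 21 members (80.8%) and of 38.2% of all genes, or in 73.5% of the members' promoters and 35.7% of all promoters. Elovl6 was the 1 member with the Foxo letters, 123 bases before the start site and on the opposite strand, against 4.05% of all genes and 3.65% of all promoters. A match to these letters is a description of the sequence, and no binding was measured here. Since only fixed letters in a short stretch were searched, a promoter without a match may still hold such a site.

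Foxo1 itself checks the labels. It had 85.4, 46.5 and 115 normalized counts in the 3 Foxo1TKO libraries and 1529, 2285 and 1598 in the 3 Foxo1Ctrl libraries, which were numbered 1 to 3 in this order here and below. A normalized count is the library's expected count scaled by the trimmed mean of M-values (TMM) to the mean library size. The difference was -4.45 on the log2 scale (standard error 0.36, edgeR adjusted p = 0.000195). Library totals ran from 14783890 to 19675447 expected counts. The first principal component held 66.4% of the variance and separated the genotypes, and the second held 17.1% and gave its lowest scores to Foxo1TKO replicate 3 and Foxo1Ctrl replicate 2. The share of mitochondrial transcripts was between 1.24% and 2.23%, with the highest values in the same 2 libraries (2.23% and 1.81%). T cell markers summed to between 8387 and 9207 TPM, a measure scaled to transcript length and library total, in all libraries. Of these 8 markers, Cd28 alone was called and was lower in Foxo1TKO libraries (log2 -1.43, edgeR adjusted p = 0.00119). The 2 CD8 T cell markers summed to between 4.27 and 6.48 TPM in Foxo1TKO libraries and between 6.87 and 8.29 TPM in Foxo1Ctrl libraries. Macrophage markers summed to at most 0.92 TPM, with C1qa at 0 in every library, whereas the 8 B cell markers summed to between 7.28 and 10.9 TPM in Foxo1TKO libraries and between 24.1 and 31.6 TPM in Foxo1Ctrl libraries. The 14 proliferation markers summed to between 779 and 1124 TPM in Foxo1TKO libraries and between 499.6 and 532 TPM in Foxo1Ctrl libraries. At an edgeR adjusted p under 0.05, 7 of them were higher (Cdk1, Top2a, Mcm5, Mcm6, Pcna, Rrm1 and Rrm2). Mki67 was not called and had the 1 negative estimate (log2 -0.12), against 13 positive ones. In such cultures, the paper found markedly less proliferation of Foxo1-deficient T cells by dilution of a dye.

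The comparison asks how the genes of lipid synthesis differ between activated T cells with and without Foxo1. In Foxo1TKO libraries, 6 enzymes of synthesis were higher (Hmgcs1, Idi1, Cyp51, Nsdhl, Hsd17b7 and Fasn) and 3 genes were lower, Elovl6, which elongates fatty acids, and Abca1 and Abcg1, which export cholesterol. A gene was called when its adjusted p in edgeR's quasi-likelihood test, adjusted over all 13691 genes tested, was under 0.05. Of the 33 members that passed the filter on low counts, 9 (27.3%) were called, against 24.2% of all genes tested. Higher calls were 6 of 33 (18.2%), against 11.8% of all genes, and lower calls were 3 of 33 (9.09%), against 12.4%. The libraries of the 2 genotypes did not overlap for 16 of 33 members (48.5%), against 42.7% of all genes. The share called among the members was therefore close to that of the genes at large, and the values below are those of single genes. The median log2 fold change was 0.17 over the 33 members and 0.01 over all genes tested. Estimates were positive for 22 members and negative for 11, against 6934 positive and 6757 negative over all genes tested. The median over the members depended on single libraries and was 0.0078 without Foxo1TKO replicate 1, 0.28 without Foxo1Ctrl replicate 1 and 0.33 without Foxo1TKO replicate 3.

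**Figure D1:**
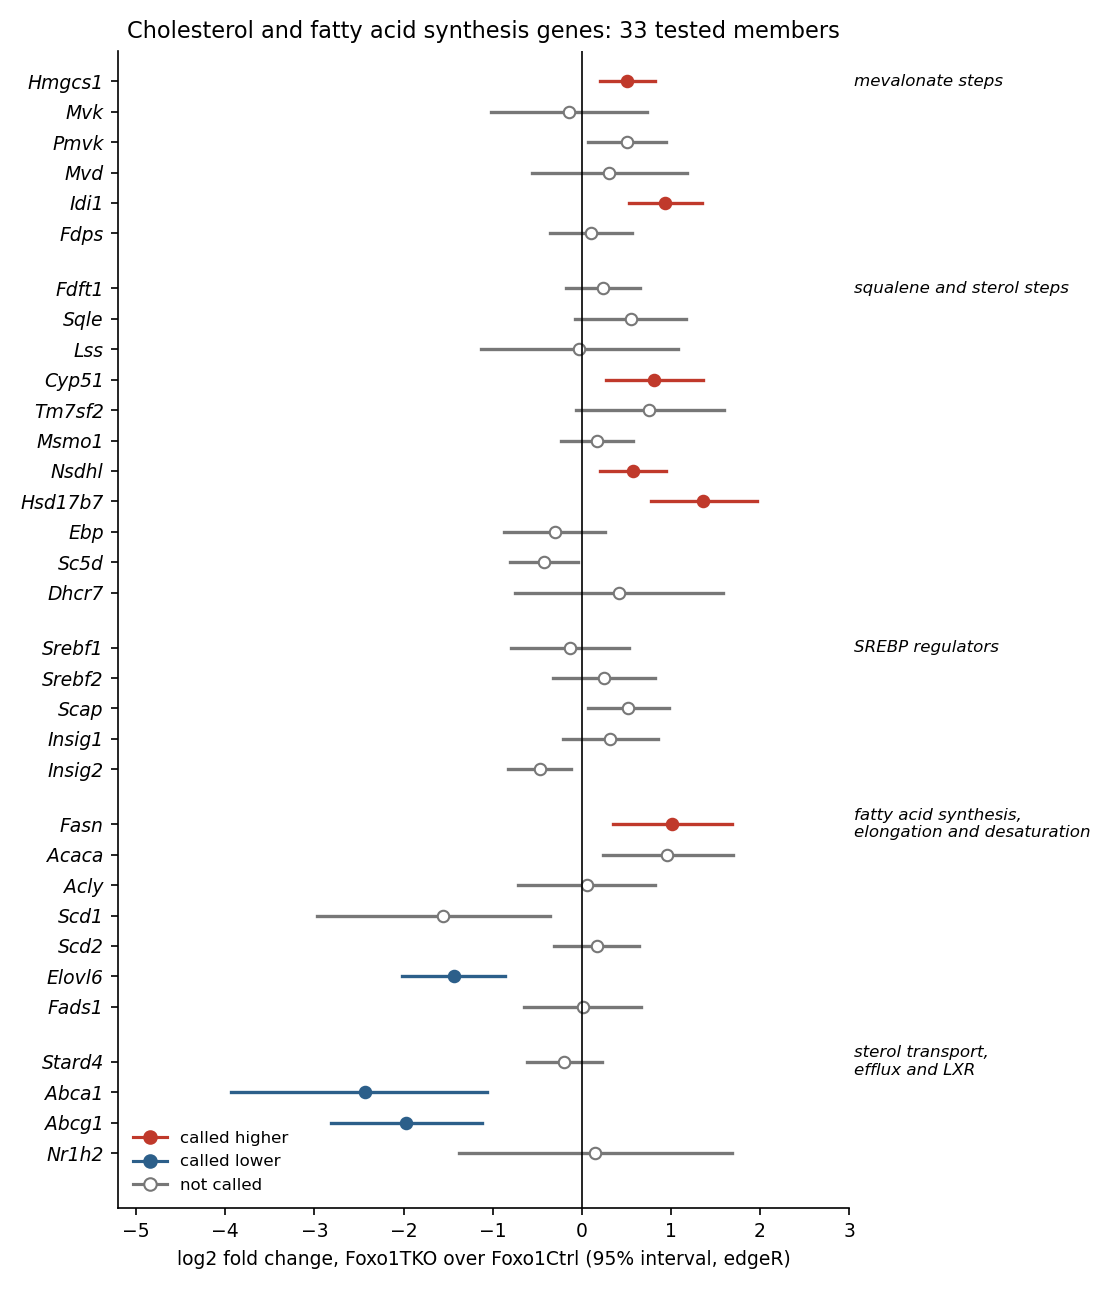
Log2 fold change of Foxo1TKO over Foxo1Ctrl (x axis) for the 33 tested members, in the order of their roles, with the 95% interval of edgeR as a line. Filled points are the 6 members called higher and the 3 called lower, and the intervals of Lss, Dhcr7 and Nr1h2 are wide, and their libraries varied within each genotype.

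The mevalonate steps held 2 of the 6 enzymes that were called, both higher. Idi1 (isopentenyl-diphosphate delta-isomerase, chr13:8885501-8892451, plus strand) interconverts the isoprenoid units of the pathway. It had 1416, 1236 and 1331 normalized counts in Foxo1TKO libraries and 626, 841 and 610.4 in Foxo1Ctrl libraries. The lowest Foxo1TKO library was above the highest Foxo1Ctrl library, and the fold change was 1.92 (log2 0.94, standard error 0.18, edgeR adjusted p = 0.00745). Hmgcs1 (cytosolic HMG-CoA synthase, chr13:119690379-119708260, plus strand) forms the precursor of mevalonate. Its normalized counts were 2346, 2143 and 2013 in Foxo1TKO libraries and 1524, 1526 and 1517 in Foxo1Ctrl libraries. The 3 control libraries were nearly equal and all were lower, with a difference of 0.51 (95% interval 0.20 to 0.82, edgeR adjusted p = 0.0282).

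The other 4 mevalonate enzymes were not called. Pmvk, which adds the second phosphate to mevalonate, had 833, 1059.9 and 1257 normalized counts in Foxo1TKO libraries and 751, 789 and 676 in Foxo1Ctrl libraries, with no overlap (log2 0.51, 95% interval 0.07 to 0.94, edgeR adjusted p = 0.0906). Mvk, which adds the first phosphate, overlapped widely, with 133, 90.4 and 59.03 in Foxo1TKO libraries and 126, 67.5 and 118 in Foxo1Ctrl libraries. Mvd, which decarboxylates the product, had a log2 difference of 0.31 (95% interval -0.56 to 1.18). Fdps, which makes farnesyl diphosphate, differed by 0.10 (-0.35 to 0.56). Its exons overlap those of Gm43738, which had no count in any library.

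Of the 11 enzymes of the squalene and sterol steps, 3 were higher at an adjusted p under 0.05. Hsd17b7 (chr1:169949535-169969241, minus strand) reduces the keto group that is left when the methyl groups at carbon 4 are removed from the sterol ring. Its normalized counts were 257, 218 and 156 in Foxo1TKO libraries and 77.5, 83.5 and 83.3 in Foxo1Ctrl libraries. Every Foxo1TKO library was above the 3 controls, which lay close together, and the fold change of 2.57 was the largest upward one among the members (log2 1.36, standard error 0.26, edgeR adjusted p = 0.00720). Nsdhl (chrX:72918557-72958514, plus strand), the dehydrogenase that acts just before it in the same demethylation, had 869, 989.7 and 919.7 normalized counts in Foxo1TKO libraries and 541, 670.1 and 651 in Foxo1Ctrl libraries. The genotypes did not overlap (log2 0.58, 95% interval 0.21 to 0.95, edgeR adjusted p = 0.0346). Msmo1, the oxidase that starts this demethylation, had 1384, 1376 and 1019.5 and 1147, 1219 and 992 and was not called (log2 0.17, 95% interval -0.24 to 0.58).

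Cyp51 (chr5:4081145-4104746, minus strand), the lanosterol 14-alpha demethylase, had 1405, 1162 and 756 normalized counts in Foxo1TKO libraries and 657, 568 and 666 in Foxo1Ctrl libraries. Foxo1TKO replicate 3 stood near the controls, and the log2 difference was 0.81 (standard error 0.24, edgeR adjusted p = 0.0405). Exons of Cyp51 overlap those of Akap9 on the opposite strand, and whether the counting used strand is not given in the sources used here, so reads in the shared positions cannot be told apart. Akap9 was not called and its estimate was negative (log2 -0.76, edgeR adjusted p = 0.0636).

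The other 8 sterol enzymes had no call. Sqle (squalene epoxidase) had 1100.4, 830.0 and 559 normalized counts in Foxo1TKO libraries and 647, 448 and 606 in Foxo1Ctrl libraries, and Foxo1TKO replicate 3 lay inside the control range (log2 0.55, 95% interval -0.07 to 1.17). Tm7sf2, a sterol C14 reductase, did not overlap between the genotypes, with 194, 135 and 113 against 109.7, 50.3 and 99.8, but varied within each of them (log2 0.76, 95% interval -0.06 to 1.59, edgeR adjusted p = 0.165). Its exons overlap those of Vps51 on the same strand. Sc5d (sterol C5 desaturase) was the 1 listed enzyme of cholesterol synthesis with all Foxo1TKO libraries below all controls. It had 676, 633 and 526 against 802, 789 and 869 and was not called (log2 -0.42, 95% interval -0.80 to -0.04, edgeR adjusted p = 0.101). Fdft1 (squalene synthase) had a log2 difference of 0.24 (95% interval -0.17 to 0.65) and shares exon positions with Ctsb on the opposite strand, which had between 3751 and 9028 expected counts. Ebp, the sterol isomerase, had a log2 difference of -0.30 (95% interval -0.87 to 0.26), with Foxo1Ctrl replicate 2 the highest library at 4558 normalized counts.

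Among the 17 enzymes of cholesterol synthesis, Lss and Dhcr7 varied most within a genotype. Lss (lanosterol synthase) had 319, 119 and 113 normalized counts in Foxo1TKO libraries and 267, 112 and 185 in Foxo1Ctrl libraries, so that the highest library was 2.84 times the lowest in Foxo1TKO and 2.38 times in Foxo1Ctrl. Dhcr7, the last reductase of the pathway, had 709, 323 and 258 in Foxo1TKO libraries and 384, 136 and 448 in Foxo1Ctrl libraries, with ratios of 2.75 and 3.29. Over 9235 genes whose mean reached 100 normalized counts, the median of this ratio was 1.35 in Foxo1TKO and 1.43 in Foxo1Ctrl. In both genes the highest Foxo1TKO library was replicate 1 and the lowest Foxo1Ctrl library was replicate 2. The correlation across 13679 genes of a library's log2 deviation with the gene's GC content was 0.28 in Foxo1TKO replicate 1 and -0.29 in Foxo1Ctrl replicate 2. The log2 differences were -0.03 (95% interval -1.13 to 1.07) for Lss and 0.41 (-0.75 to 1.58) for Dhcr7. With a correction for GC content, chosen after seeing the data, they were -0.032 and 0.34.

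**Figure D2:**
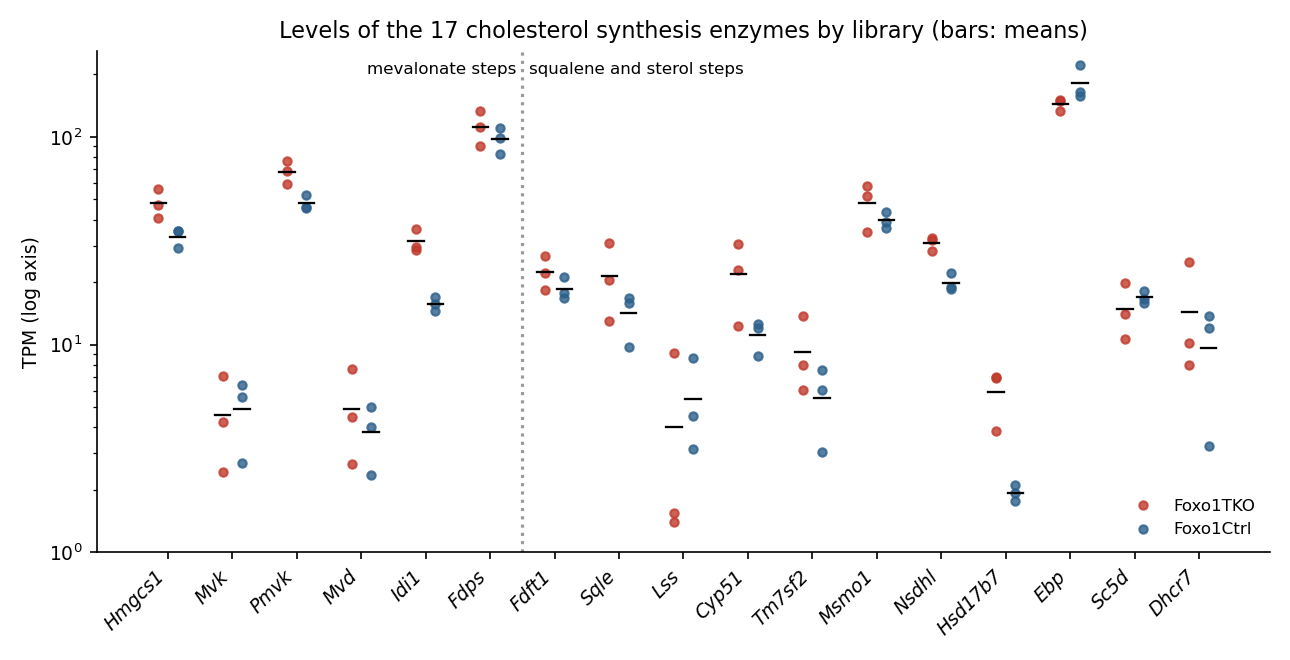
Levels of the 17 cholesterol synthesis enzymes in TPM (y axis, log scale), with 1 point for each of the 3 Foxo1TKO and 3 Foxo1Ctrl libraries and a bar at the mean of a genotype. Ebp and Fdps were the most abundant enzymes in both genotypes, and Hsd17b7 had the lowest mean in Foxo1Ctrl libraries.

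Levels per length, in TPM, allow the enzymes to be compared with each other. In Foxo1Ctrl libraries the mean level was highest for Ebp (180.9 ± 34.99 TPM, SD, n = 3) and Fdps (97.7 ± 13.9 TPM), which did not overlap each other, and lowest for Hsd17b7 (1.93 ± 0.170 TPM). Next above Hsd17b7 were Mvd (3.80 ± 1.34 TPM), Mvk (4.88 ± 1.93 TPM), Lss (5.46 ± 2.87 TPM) and Tm7sf2 (5.54 ± 2.30 TPM), and neighbouring means in this order differed by less than their SDs. In Foxo1TKO libraries Ebp (144 ± 9.46 TPM) and Fdps (111 ± 21.3 TPM) were again the highest, and the mean of Hsd17b7 (5.92 ± 1.79 TPM) was above those of Lss (4.01 ± 4.39 TPM), Mvk (4.58 ± 2.35 TPM) and Mvd (4.92 ± 2.50 TPM), with overlapping libraries in each case. Idi1 had 36.1, 29.6 and 28.6 TPM in Foxo1TKO libraries and 15.6, 16.98 and 14.5 TPM in Foxo1Ctrl libraries.

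Over the 17 listed enzymes of cholesterol synthesis, 5 were higher (29.4%), against 11.8% of all genes tested, and none was lower, against 12.4%. Their median log2 fold change was 0.41, against 0.01 over all genes tested. At an unadjusted p under 0.05, edgeR gave 6 higher and 1 lower (Sc5d), and DESeq2 and limma-voom called none lower. The share of all genes was not counted by these criteria, so these counts have nothing to be read against. Estimates were positive for 13 and negative for 4, against 6934 positive and 6757 negative over all genes tested. Of the 5 called, Idi1 and Hsd17b7 alone were called in every fit that left out 1 library (below). Acat2, an acetyl-CoA acetyltransferase of the condensing steps that lead to mevalonate, was not among these 17 enzymes. It was counted with the genes of sterol uptake, trafficking and esterification (below) and was called lower. The absence of lower calls therefore holds for the 17 listed enzymes only. The summed level of the 6 mevalonate enzymes was 299.6, 265 and 241 TPM in Foxo1TKO libraries and 214, 207 and 188 TPM in Foxo1Ctrl libraries, with no overlap and a ratio of means of 1.32. The 11 squalene and sterol enzymes summed to 386, 341 and 285 TPM in Foxo1TKO libraries and to 324, 343 and 305 TPM in Foxo1Ctrl libraries, which overlapped, with a ratio of 1.04. Fdps and Pmvk, neither of them called, make up a large part of the first sum. Their means were 111 and 68.1 TPM in Foxo1TKO libraries and 97.7 and 48.1 TPM in Foxo1Ctrl libraries. Ebp alone makes up a large part of the second sum. As given above, 7 of the 14 proliferation markers were also higher in Foxo1TKO libraries, and their part in the higher levels of these enzymes was not tested.

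**Figure D3:**
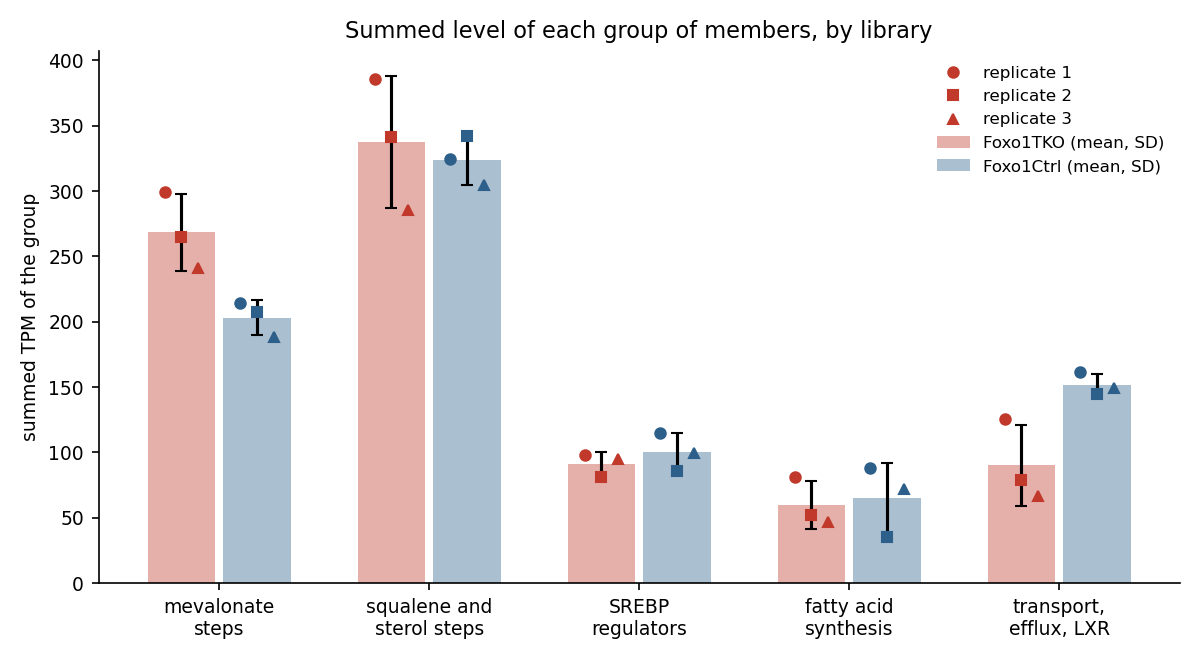
Summed TPM (y axis) of each of the 5 groups of members, with bars for the mean and lines for the SD of a genotype (n = 3) and 1 symbol for each library. The mevalonate steps (268 ± 29.4 against 203 ± 13.3 TPM) and the group of transport, efflux and LXR genes (90.3 ± 31.0 against 152 ± 8.63 TPM) did not overlap between the genotypes.

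None of the 5 SREBP regulators was called by edgeR, against 24.2% of all genes tested. At an unadjusted p under 0.05, 1 was higher (Scap) and 1 lower (Insig2). DESeq2 called these 2 and limma-voom none. The share of all genes was not counted at the unadjusted p or for these 2 tools. Srebf2, which encodes the SREBP that mainly drives cholesterol synthesis, had 849, 526 and 566 normalized counts in Foxo1TKO libraries and 628, 419 and 583 in Foxo1Ctrl libraries, which overlapped (log2 0.25, 95% interval -0.32 to 0.82). Srebf1, whose products mainly drive fatty acid synthesis, had 210.4, 133 and 139.5 in Foxo1TKO libraries and 212, 130.4 and 188 in Foxo1Ctrl libraries (log2 -0.13, 95% interval -0.79 to 0.53). Its exons overlap those of Rai1 on the opposite strand, which had between 98 and 250 expected counts. The upper bound for Srebf2 lies above the differences called for Hmgcs1 and Nsdhl, so a difference of their size lies within its interval.

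Scap, which escorts SREBPs to the Golgi, had 185, 188 and 186 normalized counts in Foxo1TKO libraries and 125, 126 and 137 in Foxo1Ctrl libraries. Its libraries were very close within each genotype and did not overlap, but the adjusted p was 0.0926 in edgeR, which shares its estimate of spread between genes, and 0.0488 to 0.288 over 17 other ways of fitting (log2 0.52). Insig2, which retains Scap in the endoplasmic reticulum, had 829.9, 951 and 1045 against 1370.0, 1333 and 1218, with every Foxo1TKO library lower. Its adjusted p in edgeR was 0.0581, and it ran from 0.0325 to 0.214 over the same ways of fitting (log2 -0.47, 95% interval -0.83 to -0.12). Insig1, the other retention protein and itself a known SREBP target, overlapped, with 336, 255 and 284 against 239.7, 280.2 and 181 (log2 0.32, 95% interval -0.21 to 0.85).

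Among the 8 genes of fatty acid synthesis, elongation and desaturation, 7 were tested, 1 was higher and 1 was lower. Elovl6 (chr3:129532355-129638495, plus strand), the elongase that lengthens palmitate to stearate, had 334, 329 and 331 normalized counts in Foxo1TKO libraries and 1118, 587 and 987 in Foxo1Ctrl libraries. The 3 Foxo1TKO libraries were almost the same and all were below the controls, of which replicate 2 was the lowest. The log2 difference was -1.44 (standard error 0.25, edgeR adjusted p = 0.00526). In TPM it had 8.75, 7.67 and 7.21 in Foxo1TKO libraries and 28.04, 9.48 and 22.8 in Foxo1Ctrl libraries, and the lowest control was then close to the highest Foxo1TKO library. The antisense gene Gm35986 had at most 6 expected counts in any library.

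Fasn (chr11:120805846-120824547, minus strand), fatty acid synthase, had 389, 257 and 270.4 normalized counts in Foxo1TKO libraries and 197, 106 and 150.2 in Foxo1Ctrl libraries. The genotypes did not overlap, and the fold change was 2.02 (log2 1.01, standard error 0.29, edgeR adjusted p = 0.0375). In TPM they overlapped, with 13.2, 6.01 and 6.32 in Foxo1TKO libraries and 7.35, 1.98 and 5.21 in Foxo1Ctrl libraries. Acaca, the acetyl-CoA carboxylase that supplies Fasn with malonyl-CoA, had 152, 118 and 94.4 against 81.1, 58.3 and 47.5, also without overlap. Its log2 difference was 0.96 (95% interval 0.24 to 1.69), and its adjusted p was 0.0587 in edgeR and 0.0224 to 0.180 over the 17 other ways of fitting. Acly, which makes cytosolic acetyl-CoA from citrate, had 2454, 1439 and 1203 against 2078, 1038 and 1796 and overlapped widely (log2 0.05, 95% interval -0.71 to 0.82), with the highest and the lowest library in each genotype differing by 2.04 times in Foxo1TKO and 2.00 times in Foxo1Ctrl.

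The desaturases gave no call. Scd2, a stearoyl-CoA desaturase, had 584, 554 and 684 normalized counts in Foxo1TKO libraries and 577, 631 and 413 in Foxo1Ctrl libraries (log2 0.17, 95% interval -0.31 to 0.65). Scd1, its close relative, was rare, with 16, 3 and 9 expected counts in Foxo1TKO libraries and 27, 24 and 23 in Foxo1Ctrl libraries. These did not overlap, but the interval was wide (log2 -1.56, 95% interval -2.97 to -0.36, edgeR adjusted p = 0.0677), and reads shared by the 2 paralogs may be split between them. Fads1, a front-end desaturase of polyunsaturated fatty acids, had between 47.5 and 68.6 normalized counts in all 6 libraries (log2 0.01, 95% interval -0.64 to 0.67). Fads2 had 22, 1 and 0 expected counts in Foxo1TKO libraries and 14, 1 and 3 in Foxo1Ctrl libraries and was too rare to be tested. In each genotype its highest library was replicate 1.

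The summed level of the 8 genes was 80.9, 51.9 and 47.1 TPM in Foxo1TKO libraries and 87.8, 35.1 and 72.2 TPM in Foxo1Ctrl libraries, which overlapped. Acly was the most abundant of the 8 in both genotypes (33.2 ± 12.5 TPM in Foxo1TKO and 31.2 ± 14.4 TPM in Foxo1Ctrl, SD, n = 3).

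**Figure D4:**
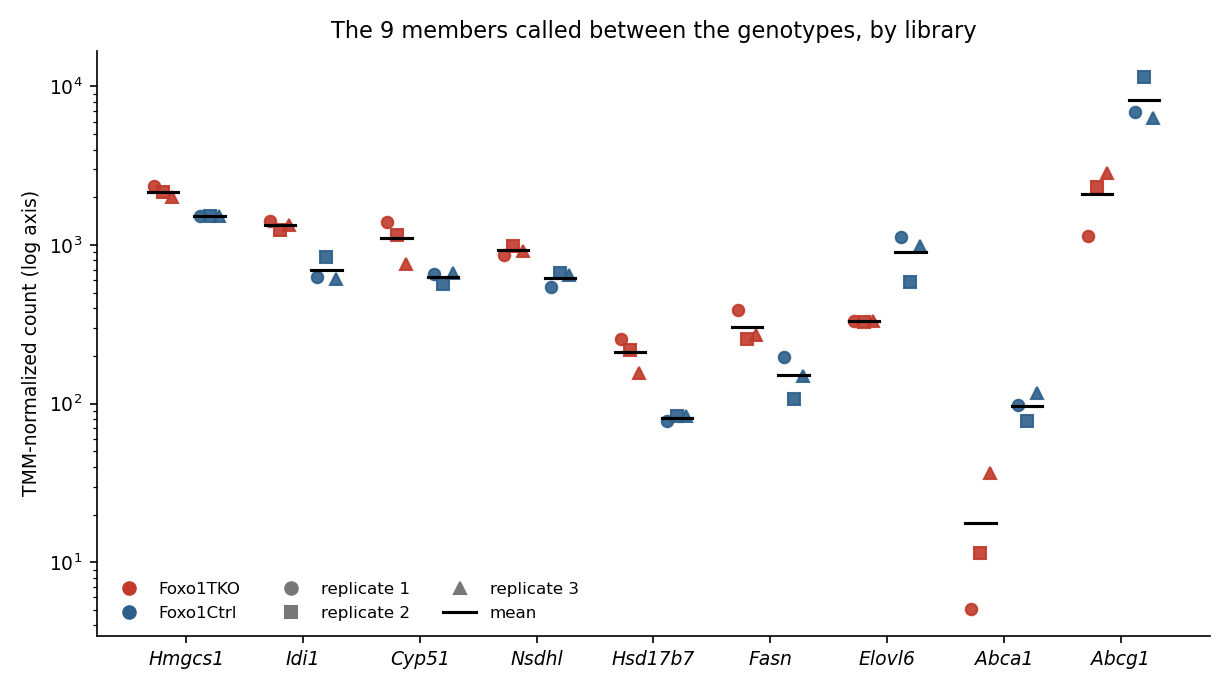
TMM-normalized counts (y axis, log scale) of the 9 called members in each of the 3 Foxo1TKO and 3 Foxo1Ctrl libraries, with a bar at the mean of a genotype. The genotypes do not overlap for any of the 9, which were called on these same counts. The smallest gap relative to its level is that of Cyp51, between Foxo1TKO replicate 3 (756) and the highest control (666).

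Sterol export gave the largest differences among the members. Abcg1 (chr17:31057675-31117988, plus strand), an ABC transporter that exports cholesterol to lipoproteins and a known LXR target, had 1141, 2308 and 2850.4 normalized counts in Foxo1TKO libraries and 6899, 11404 and 6364 in Foxo1Ctrl libraries. The controls were 3.92 times as high (log2 -1.97, standard error 0.37, edgeR adjusted p = 0.00709). Per length, it was at 14.9, 26.8 and 31.2 TPM in Foxo1TKO libraries and 83.7, 115 and 76.9 TPM in Foxo1Ctrl libraries, so that it was the most abundant gene of its group in the controls. Abca1 (chr4:53030787-53159895, minus strand), a second exporter and LXR target, was much rarer, with 6, 13 and 34 expected counts in Foxo1TKO libraries and 82, 68 and 120 in Foxo1Ctrl libraries. All Foxo1TKO libraries were lower but they spread over a ratio of 7.20 in normalized counts (log2 -2.43, 95% interval -3.94 to -1.06, edgeR adjusted p = 0.0231). Its log2 difference was -3.41 without Foxo1TKO replicate 3, the highest of the 3, and -1.59 with an offset for effective length, where it was not called. In TPM it overlapped, with 0.0400, 0.100 and 0.530 in Foxo1TKO libraries and 0.660, 0.440 and 0.780 in Foxo1Ctrl libraries.

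The 2 remaining genes of this group were not called. Nr1h2, which encodes LXR beta, had 1968, 835 and 445 normalized counts in Foxo1TKO libraries and 1428, 276 and 1219.9 in Foxo1Ctrl libraries. The highest library of a genotype was 4.42 times the lowest in Foxo1TKO and 5.18 times in Foxo1Ctrl, so its estimate is not precise (log2 0.15, 95% interval -1.38 to 1.68). Stard4, a carrier of sterols between membranes, had 1042, 759 and 736 against 1009.9, 924 and 969.9 (log2 -0.19, 95% interval -0.61 to 0.22). The group summed to 125, 79.1 and 66.4 TPM in Foxo1TKO libraries and to 161, 144 and 149 TPM in Foxo1Ctrl libraries, a ratio of means of 0.595, to which Nr1h2 adds its own spread. In cultures of several cell types, fewer cells of a type and less RNA per cell cannot be told apart. The B cell markers were lower in Foxo1TKO libraries too, with 4 of 7 tested markers called lower (Cd79a, Cd79b, Ms4a1 and Cd22), and their part in the lower levels of Abcg1, Abca1 and Elovl6 was not tested.

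How far the 9 calls depend on single libraries was examined by leaving out each of the 6 in turn. Idi1, Hsd17b7, Elovl6 and Abcg1 were called each time. Their adjusted p-values ran from 0.00318 to 0.0424 for Idi1, from 0.00779 to 0.0385 for Hsd17b7, from 0.000707 to 0.0338 for Elovl6 and from 0.0103 to 0.0353 for Abcg1 (edgeR). Hmgcs1 and Nsdhl were called only without Foxo1Ctrl replicate 2, with adjusted p up to 0.110 and 0.150. Cyp51 was called only without Foxo1TKO replicate 3 (adjusted p 0.0141 to 0.129), and Fasn only without Foxo1Ctrl replicate 1 (0.0424 to 0.110). Abca1 lost its call without Foxo1TKO replicate 2, Foxo1Ctrl replicate 1 or Foxo1Ctrl replicate 3 (0.00460 to 0.0995). All 9 kept the sign of their difference in these 6 fits, in which there were 2 to 4 higher and 2 to 3 lower calls among the members. Without Foxo1TKO replicate 3 and Foxo1Ctrl replicate 2, the 2 lowest on the second component, 8 of the 9 were called and Fasn was not.

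**Figure D5:**
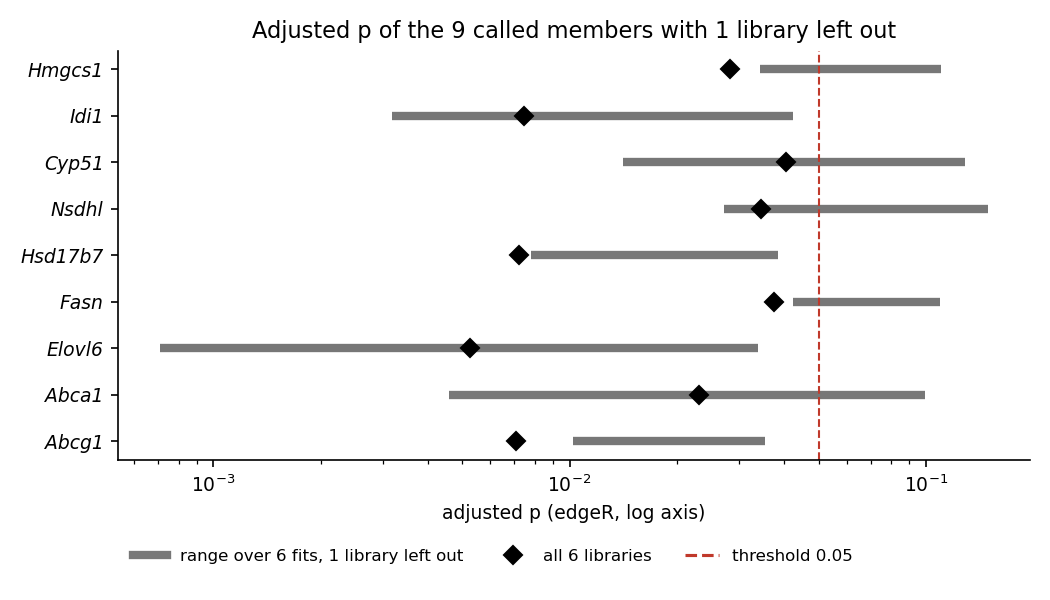
Adjusted p of edgeR (x axis, log scale) for the 9 called members, with all 6 libraries (diamonds) and as a range over the 6 fits that leave out 1 library (grey lines). The ranges of Idi1, Hsd17b7, Elovl6 and Abcg1 stay below the threshold of 0.05 (dashed line), whereas those of the other 5 cross it.

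Other genes of the same pathways were counted in 7 lists, described by their counts beside the 11.8% higher and 12.4% lower of all genes. Of 10 partners of LXR and other LXR targets, 7 were tested, 1 was higher and 3 were lower. The 3 lower genes were Arl4c, a small GTPase, with 187, 177 and 207 against 832, 632 and 631 normalized counts (log2 -1.87, edgeR adjusted p = 0.000565), Mylip, a ubiquitin ligase for lipoprotein receptors (log2 -1.65, adjusted p = 0.000562), and Abca7, an ABC transporter (log2 -1.15, adjusted p = 0.0123). No library of these 3 genes overlapped with the other genotype. The higher one was Rxra, the partner receptor of LXR (log2 1.31, adjusted p = 0.0267), which was named after its values were seen, as were the remaining called genes of the next lists. When 1 library was left out, this list held 1 higher call only without Foxo1TKO replicate 3 and none without any of the others, and 2 to 3 lower calls.

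Of 17 genes of sterol uptake, trafficking and esterification, 3 were higher and 5 were lower. Npc2, which carries cholesterol inside lysosomes, had 8488, 9872 and 10009.6 normalized counts in Foxo1TKO libraries and 27259, 28939 and 22285 in Foxo1Ctrl libraries (log2 -1.47, edgeR adjusted p = 0.000797). Osbpl9, an oxysterol-binding protein relative, was also lower (log2 -0.87, adjusted p = 0.00394). Gramd1b, which moves cholesterol from the plasma membrane to the endoplasmic reticulum, was higher, with 876, 827 and 863 against 421, 390.0 and 434 (log2 1.04, adjusted p = 0.00237). Tmem97, a partner of the lysosomal cholesterol transporter, was higher as well (log2 0.84, adjusted p = 0.0260). The remaining higher call was Scarb1, a lipoprotein receptor (log2 1.48, edgeR adjusted p = 0.0444). The remaining lower calls were Vldlr, another lipoprotein receptor (log2 -2.33, edgeR adjusted p = 0.00316), Npc1, the lysosomal cholesterol transporter (log2 -0.74), and Acat2, an acetyl-CoA acetyltransferase (log2 -0.78). Scarb1 and Vldlr were rare, with means of 48.9 and 76.8 normalized counts over the 6 libraries. Leaving out 1 library gave 1 to 3 higher and 3 to 7 lower calls, with 1 higher call without Foxo1TKO replicate 1, Foxo1Ctrl replicate 1 or Foxo1Ctrl replicate 3, and 3 lower calls without Foxo1TKO replicate 2 or 3. DESeq2 gave 4 higher and 7 lower calls, and limma-voom 2 higher and 4 lower, without Scarb1 and Npc1.

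Of 12 genes of SREBP processing and turnover, 1 was higher and 3 were lower. Fbxw7, the ubiquitin ligase subunit that marks nuclear SREBPs and other proteins for degradation, had 468, 618 and 507 normalized counts in Foxo1TKO libraries and 1199, 1942 and 1101 in Foxo1Ctrl libraries (log2 -1.41, edgeR adjusted p = 0.00563). Rnf145, a ligase of the endoplasmic reticulum (log2 -1.15, adjusted p = 0.0461), and Sec23a, a coat protein of the vesicles that leave it (log2 -0.50, adjusted p = 0.0492), were lower, and Erlin1 was higher (log2 1.14, adjusted p = 0.0481). The libraries of Rnf145 overlapped between the genotypes. No fit that left out 1 library held 3 lower calls in this list, with 0 to 1 higher (1 only without Foxo1TKO replicate 3) and 1 to 2 lower, and limma-voom called Fbxw7 and Sec23a alone.

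Further genes of fatty acid synthesis and acyl-CoA formation numbered 22, of which 17 were tested, 5 were higher and 2 were lower. Both lower genes make acetyl-CoA from acetate. Acss2, the cytosolic and nuclear enzyme, had 362, 252 and 245 normalized counts in Foxo1TKO libraries and 1375, 794 and 1944 in Foxo1Ctrl libraries (log2 -2.26, edgeR adjusted p = 0.00280), and Acss1, the mitochondrial one, had 324, 166 and 177 against 1225, 571 and 965 (log2 -2.04, adjusted p = 0.00572). Acsl3, which activates long-chain fatty acids, was higher, with 219, 225 and 281 against 26.2, 73.2 and 62.98 (log2 2.13, adjusted p = 0.00536). Hacd3, a dehydratase of the elongation cycle in which Elovl6 acts, was higher too (log2 1.07, adjusted p = 0.00244). Hacd2 (log2 1.03) and Hsd17b12 (log2 1.01), enzymes of the same cycle, and Mecr, a reductase of mitochondrial fatty acid synthesis (log2 0.88), were the other higher genes. Leaving out 1 library gave 4 to 6 higher and 2 to 3 lower calls, and DESeq2 and limma-voom called the same 7 genes.

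The other 3 lists held 2 calls each. Of 17 genes of fatty acid oxidation, 2 were higher, namely Etfb, a subunit of the electron transfer flavoprotein (log2 1.01, edgeR adjusted p = 0.0199), and Decr1, a reductase for unsaturated fatty acids (log2 0.69, adjusted p = 0.0476). Of 16 genes of glycerolipid synthesis, 15 were tested, with Chka (choline kinase) higher (log2 1.20, adjusted p = 0.0102) and Dgat1, which forms triglycerides, lower (log2 -1.14, adjusted p = 0.0206). Of 15 genes of prenylation and other branches of the mevalonate pathway, Rabggtb, a subunit of the enzyme that prenylates Rab proteins, was higher (log2 0.71, adjusted p = 0.0187), and Chm, which presents Rab proteins to it, was lower (log2 -0.58, adjusted p = 0.0270). These counts changed when 1 library was left out. The calls over all genes changed too, to between 657 and 1832 higher and between 933 and 1599 lower. In fatty acid oxidation there were 4 higher calls without Foxo1Ctrl replicate 2, 2 without Foxo1TKO replicate 1 and 0 without any other library. In glycerolipid synthesis there were 0 higher calls without Foxo1Ctrl replicate 1 and 1 in the other 5 fits, and 3 lower calls without Foxo1Ctrl replicate 2, 1 without Foxo1TKO replicate 1 and 0 in the other 4. In prenylation there were 2 higher calls without Foxo1TKO replicate 1 or Foxo1Ctrl replicate 2 and 0 in the other 4 fits, and 1 lower call only without Foxo1Ctrl replicate 2.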

How the data were processed

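Expected counts per gene and library were deposited by the authors as RSEM estimates, with the TPM values of RSEM beside them. Alignment by the authors used STAR 2.7.6a with the GRCm38 genome of Ensembl (release 101), reads at more than 10 loci were dropped, and RSEM 1.3.1 did the counting. Whether the counting used strand is not given in the sources used here. The authors also deposited a normalized signal, in which expected counts are scaled by size factors of DESeq2 and by relative effective length. It was used for an alternative only. The deposited effective lengths served as an offset in another alternative.

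Groups came from the sample titles. Expected counts were rounded to whole numbers, and 13691 genes reached the minimum of 10 counts in 3 or more libraries. Differences were tested with edgeR 4.0.16 (TMM, glmQLFit and glmQLFTest, prior count 1, genotype as the only term) in R 4.3.3, with Benjamini-Hochberg adjustment over all genes tested. The scripts were tested on simulated data. A rank or permutation test of 3 against 3 libraries was not used, since its smallest two-sided p is 0.1. TPM sums have no test. Replicates differed by far more than sampling noise, with a chi-square per gene of 14.1 to 95.6, so each was counted as 1 replicate. Gene positions and exon overlaps came from GENCODE M21 (GRCm38), in which 55141 of 55487 gene identifiers were found. In each of the 7 lists of further genes, the rule named the 4 with the largest absolute log2 fold change among called genes whose mean reached 100 normalized counts, and all members are named. Rxra, Scarb1, Vldlr, Npc1, Acat2, Hacd2, Hsd17b12 and Mecr fall outside this rule and were named after their values were seen, to complete the calls of 3 lists. Alternatives were DESeq2 1.42.0, limma 3.58.1 (voom, and the normalized signal with a pseudocount of 1), other scalings, filters and thresholds, a replicate block and leaving out each library. A GC correction and leaving out 2 libraries together were chosen after seeing the data. The members, lists and tests were chosen with earlier results of these data known. Some genes of these pathways are not reported here.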

Additional observations from a re-analysis of the deposited data

How the results depend on the processing

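Over 17 alternative fits, the 9 called members kept the sign of their difference, and Idi1, Hsd17b7, Elovl6 and Abcg1 were called in all of them. Abca1 was called in 12, Hmgcs1 and Nsdhl in 11, Cyp51 in 10 and Fasn in 9. Leaving out each library in turn gave 657 to 1832 higher and 933 to 1599 lower calls over all genes, against 1613 and 1695, and 2 to 4 higher and 2 to 3 lower calls among the members. The fewest calls over all genes came without Foxo1TKO replicate 2, and the cause was not tested. At an adjusted p under 0.01, 729 genes were higher and 868 lower, with 2 higher (Idi1 and Hsd17b7) and 2 lower members. At a fold change over 1.5 the members held 4 higher and 3 lower calls, without Hmgcs1 and Nsdhl. DESeq2 called 5 members lower, adding Insig2 and Scd1, and 8 higher, adding Acaca and Scap. limma-voom lost Cyp51, the effective length offset lost Abca1 and Fasn, the normalized signal lost Abca1, Cyp51 and Fasn, and no filter on low counts lost Hmgcs1 and Nsdhl. On the normalized signal, the summed level of the transport, efflux and LXR genes differed by -1.31 (log2 ratio) against -0.75 in TPM. That signal is not divided by a gene's length, so Abcg1 weighs more in it.

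Members with no call changed sign in some fits. Leaving out 1 library, or the 2 lowest on the second component, gave -0.11 to 0.27 for Fads1, -0.69 to 0.28 for Lss, -0.052 to 0.58 for Mvd, -0.15 to 0.72 for Dhcr7, -0.31 to 0.26 for Acly, -0.60 to 0.53 for Nr1h2, -0.47 to 0.11 for Mvk, -0.46 to 0.0027 for Ebp, -0.047 to 0.41 for Fdps and -0.0013 to 0.30 for Scd2 on the log2 scale. Lss was at -0.55 with the effective length offset and at -0.93 on the authors' normalized signal. Fads1 was at -0.0031 with upper quartile scaling and at -0.084 with the GC correction, and Acly at -0.015 with the GC correction, which added Insig2 to the calls. With the replicate number as a block, 1710 genes were higher and 1718 lower, and Acaca was added to the members called (7 higher and 3 lower). The sources do not state whether same-numbered libraries come from 1 experiment. The paper paired the genotypes by experiment for its cytometry of such cultures but names no pairing for the sequencing. The deviations of same-numbered libraries correlated at 0.43, 0.20 and -0.11, and not every library correlated best with its own number. With 3 libraries per genotype, these correlations cannot decide whether the libraries are paired. Depth limits Scd1, Abca1 and Fads2, which had at most 27, 120 and 22 expected counts in a library.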
